A study of Homo sapiens with 4 samples.

Results

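MAT2A and 8 other genes of the methionine cycle were followed in Huh7 liver cancer cells carrying a guide against the methyltransferase METTL16 or a non-targeting guide. The members are MAT2A, MAT2B and MAT1A, which make S-adenosylmethionine (SAM), GNMT, which spends SAM, AHCY, which clears its spent form, AHCYL1, a relative of AHCY, and MTR, MTRR and BHMT, which rebuild methionine. They were taken by symbol, and all 9 were among the 18806 genes of the table. Huh7 is a line established from a human hepatocellular carcinoma. All cells came from a single Huh7 clone that stably expressed Cas9 and were selected with hygromycin B at 1 mg/mL. The control cells carried a non-targeting guide (sgNS, labelled wild type, 2 libraries), and the other cells carried a METTL16 guide (METTL16 KO here, labelled a knockdown, 2 libraries). The paper describes its sequenced RNA samples as having 2 biological replicates each. Neither the paper nor the labels say whether the number in a sample name marks a guide or a culture. The p-values therefore measure only the spread between these libraries of a single clone.

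The methionine cycle turns methionine and ATP into SAM, the methyl donor of the cell. Methyltransferases spend SAM and leave S-adenosylhomocysteine, which AHCY splits into adenosine and homocysteine. Homocysteine is either methylated back to methionine or drained into cysteine by transsulfuration. The catalytic subunit of the SAM-making enzyme comes from MAT1A in adult liver and from MAT2A in most other tissues and in many liver cancers. METTL16 is known to bind hairpins in the 3′ UTR of MAT2A mRNA, to methylate them and, when SAM is scarce, to promote splicing of the last intron of MAT2A, which raises the amount of mature mRNA.

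The hairpin sites are shown here because they set MAT2A apart from the other members at the sequence level. A search of the sense strand for TACAGAGAA found 5 copies in the 3′ UTR of MAT2A, and the variant TACAGAAAA found 1 more. The 6 sites lie in exon 9, the last exon, whose 3′ UTR covers chr2:85543773-85545281 on the plus strand of GRCh38 in GENCODE release 44. They are written as DNA with the searched letters in capitals.
site 1 (chr2:85543801-85543830): ttggcgtaggcTACAGAGAAgccttcaagc
site 2 (chr2:85544588-85544617): ttgtgatgtcaTACAGAGAAgtcacagggc
site 3 (chr2:85544773-85544802): gctggtgtagcTACAGAGAAaccagcttcc
site 4 (chr2:85544888-85544917): tatggcgtaagTACAGAGAAgccatcacct
site 5 (chr2:85545003-85545032): ccaaggtgtccTACAGAAAAaccttgggtt
site 6 (chr2:85545111-85545140): ggctggtgtggTACAGAGAAgccagcttgt
The bases before the motif and those after it include arms that can pair with each other, such as atggc and gccat in site 4. The longest unbroken run of Watson-Crick pairs was 7 at sites 3 and 5, 5 in sites 2, 4 and 6, and 4 in site 1. At site 3 the outermost pair uses the base just before the stretch shown. TACAGAGAA occurred at least once in the 3′ UTR of 1.62% of 19675 protein-coding genes, and in 1.27% of the 2682 genes whose 3′ UTR was 0.8 to 1.25 times as long as that of MAT2A. Besides MAT2A, no gene searched held more than 2 copies. The 3′ UTRs of the other 8 members and of METTL16 held neither form. With TACAGAGAA in only 1.62% of genes such an absence is common, and the share of genes holding the variant was not counted. The letters searched were chosen for the known MAT2A hairpins, so their presence in MAT2A was not in question. A match describes the letters only, and no binding was measured in these libraries.

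**Figure D1:**
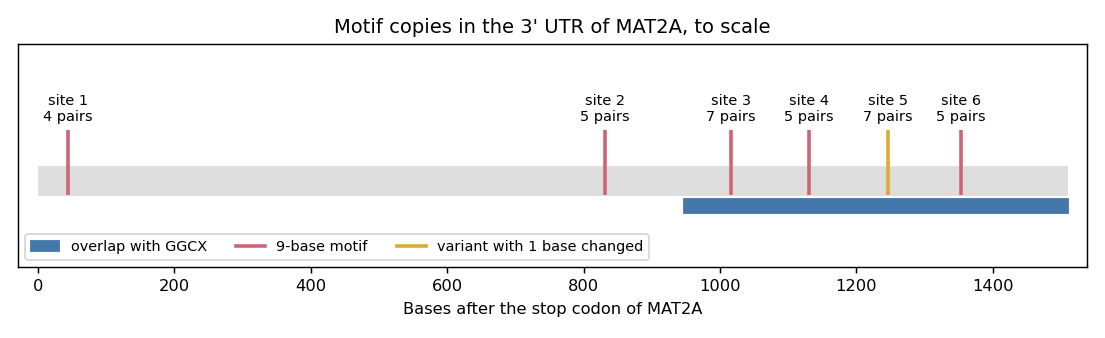
Positions of the 6 motif copies along the 3′ UTR of MAT2A, in bases after the stop codon, with the longest run of base pairs between the arms of each site and the stretch shared with GGCX on the other strand. Site 1 stands alone near the stop codon and the other 5 lie in the distal part, 4 of them within the shared stretch.

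TPM, the RNA-seq unit of transcript abundance, is a level per gene corrected for gene length, so that levels of different genes may be compared within a library. Each library summed to 1000000 TPM, read counts are not kept in this unit, and the depth of the libraries is therefore unknown. Between 11723 and 12074 genes reached 1 TPM per library. Each gene with a mean of at least 1 TPM was tested with limma on log2(TPM + 0.1), 11971 genes in all, and a gene was called at a Benjamini-Hochberg adjusted p under 0.05. Fold changes are on that log2 scale, which understates the change of low genes. Taken over all tested genes, the log2 fold change had a median of 0.16, or -0.0016 after median-ratio scaling, in which each library is divided by its median ratio to the average library. With 2 libraries against 2, the smallest p of an exact two-sided permutation test on 1 gene is 0.33. All 11 hepatocyte and hepatoma markers, such as ALB and AFP, were at 1 TPM or more in every library, with summed levels from 31080 to 35700 TPM. Of the 19 markers of other cells, 12 stayed under 1 TPM in every library, PTPRC and CD3E of immune cells among them, and none was at 0 throughout. The remaining markers included LYZ, which carried most of the summed immune level of 920 to 1557 TPM, and SOX9, with most of the summed cholangiocyte level of 207 to 231 TPM. The endothelial markers summed to 2.77 to 5.50 TPM and the fibroblast markers to 2.66 to 3.53 TPM. METTL16 itself was at 26.29 and 25.14 TPM with sgNS against 17.62 and 18.75 TPM with METTL16 KO. It fell by 0.50 on the log2 scale (standard error 0.062, limma adjusted p = 2.4e-05), and the mRNA was thus still present in both METTL16 KO libraries. The paper checked the knockout in Huh7 cells by Western blotting of the protein, a level that these RNA values do not measure.

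Of the 9 members, 8 passed the minimum level and were tested. MAT2A, AHCYL1 and AHCY fell in METTL16 KO, against 25.6% of all genes tested that were called lower. MAT1A, BHMT, MTR, MTRR and MAT2B rose, against 50.1% of all genes tested that were called higher. Since 75.7% of all genes were called in one direction or the other, the count of 8 called members is not in itself a result about this cycle, and size and direction tell more. Their groups did not overlap in any of the 8, as in 87.4% of all genes tested. With an added threshold of 1 on the log2 fold change, MAT1A alone was called higher, against 7.7% of all genes, and no member was called lower, against 3.77%. After median-ratio scaling, 3 members were lower and 3 were higher, against 36.5% and 36.4% of all genes, since MAT2B and BHMT no longer passed. The counts were also 3 and 3 after quantile normalization, against 35.5% and 36.9%. In bulk RNA, fewer cells of a kind and less RNA per cell cannot be told apart.

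**Figure D2:**
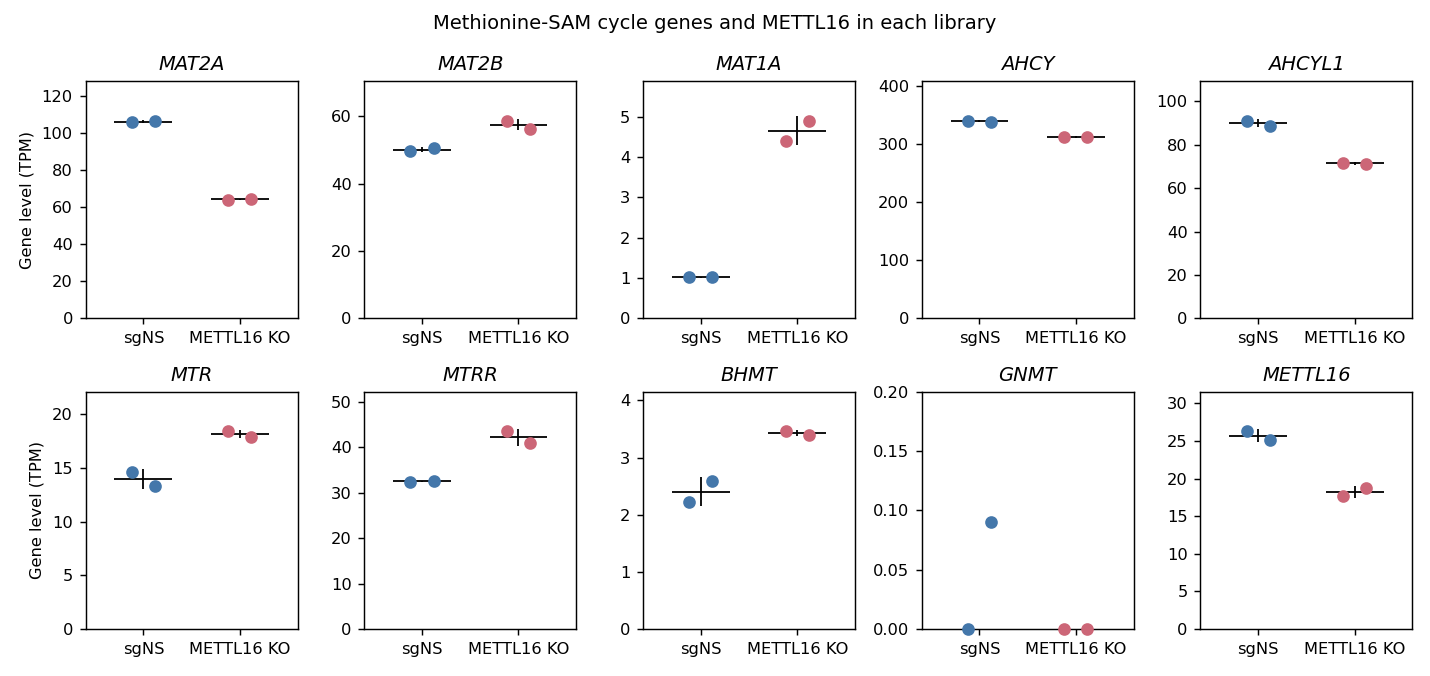
TPM of the 9 members and of METTL16 in each library (points), with the group mean (horizontal line) and SD (vertical line), both left out for GNMT, each panel on its own linear axis from 0. MAT2A sits at 106 and 107 TPM with sgNS against 64.0 and 64.5 TPM with METTL16 KO, while MAT1A goes from about 1 to between 4.39 and 4.90 TPM.

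Of the transcripts for the enzyme that makes SAM, MAT2A fell and MAT1A rose, while the call of MAT2B depended on scaling. MAT2A, the catalytic subunit outside normal adult liver, was at 105.86 and 106.88 TPM with sgNS against 64.01 and 64.49 TPM with METTL16 KO. Both METTL16 KO libraries were low, and the groups lay far apart relative to the spread within them. The mean fell by 39.6%, from 106 ± 0.72 to 64.2 ± 0.34 TPM (SD, n = 2 per group). The log2 fold change was -0.73 (95% interval -0.81 to -0.64, standard error 0.040, limma adjusted p = 4.2e-08). Among all genes tested, 7.13% had a lower fold change. It was -0.89 after median-ratio scaling and -0.85 after quantile normalization, so the fall was larger when the shift of the median gene was taken out. The fall of MAT2A was larger than that of METTL16 in these libraries, -0.73 against -0.50, a difference that was not tested.

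The 3′ end of MAT2A overlaps that of GGCX, a gene on the opposite strand that encodes the vitamin K-dependent gamma-carboxylase. The last 562 of the 2817 bases of the canonical MAT2A transcript, from 85544720 to 85545281 on chromosome 2, are exonic in both genes, and sites 3 to 6 lie there. GGCX was at 85.83 and 81 TPM with sgNS against 52.38 TPM in both METTL16 KO libraries, a log2 fold change of -0.67 (limma adjusted p = 2.2e-07). The library kit keeps strand, but the strand setting of the counting is not given in the sources used here, and the part of shared reads in either value was not tested. GENCODE lists 6 transcripts of MAT2A, of which 3 retain an intron, and 1 pseudogene named for it. A value per gene adds what its annotation holds, so that spliced and intron-retaining MAT2A RNA cannot be told apart here.

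MAT2B encodes the regulatory subunit that binds the MAT2A enzyme. It was at 49.62 and 50.57 TPM with sgNS against 58.75 and 56.37 TPM with METTL16 KO, so that it lay slightly higher in both METTL16 KO libraries. Its log2 fold change was 0.20 (95% interval 0.098 to 0.30, limma adjusted p = 0.0023). This call depended on scaling, with 0.034 on the log2 scale after median-ratio scaling (limma adjusted p = 0.51) and 0.081 after quantile normalization (limma adjusted p = 0.14). The ratio of MAT2A to MAT2B within a library does not depend on scaling by a factor. It was 2.13 and 2.11 in sgNS and 1.09 and 1.14 in METTL16 KO, so the mRNA level of MAT2A went from about double that of MAT2B to nearly the same, while the proteins were not measured.

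MAT1A, the form of the catalytic subunit typical of mature hepatocytes, went the other way. It was listed at 1.01 and 1.02 TPM with sgNS against 4.39 and 4.9 TPM with METTL16 KO, which is low in both groups. The groups did not overlap, and the mean was 4.58 times as high in METTL16 KO, 4.65 ± 0.36 against 1.02 ± 0.0071 TPM (SD, n = 2 per group). The log2 fold change was 2.09 (95% interval 1.74 to 2.44, limma adjusted p = 5.0e-07), and 1.48% of all genes tested had a higher one. A pseudocount of 1 brought it to 1.49, and median-ratio scaling to 1.93. Since both sgNS values lie close to the minimum of 1 TPM and the depth is unknown, the size of this rise is less certain than that of the fall of MAT2A.

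The summed mRNA level of both catalytic subunits was lower in METTL16 KO. MAT2A and MAT1A together came to 106.9 and 107.9 TPM with sgNS against 68.4 and 69.4 TPM with METTL16 KO. The share of MAT1A in that sum went from 0.945% in both sgNS libraries to 6.42% and 7.06% in METTL16 KO. The ratio of MAT2A to MAT1A was 104.8 in both sgNS libraries and 14.6 and 13.2 in METTL16 KO.

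**Figure D3:**
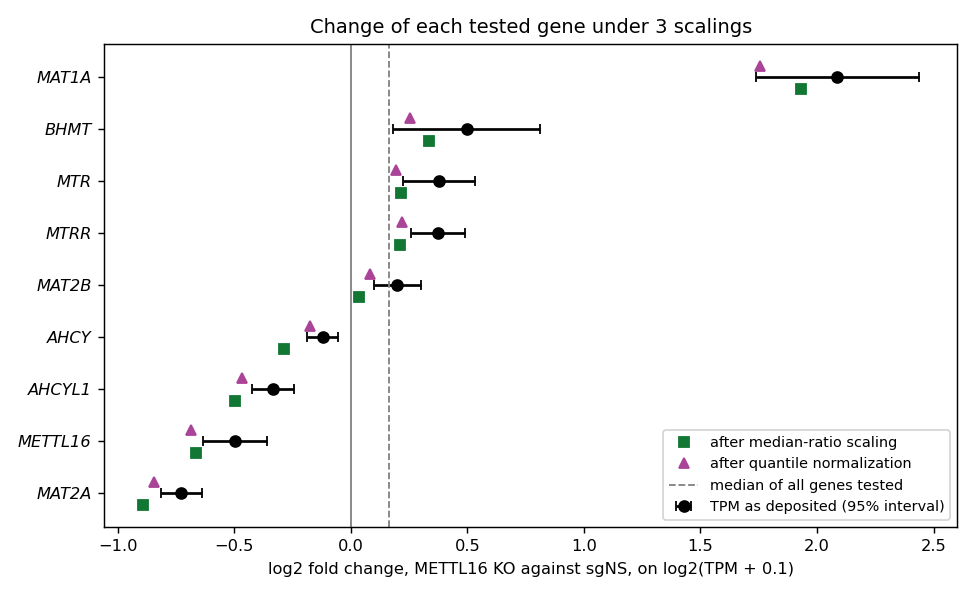
Log2 fold change of each tested member and of METTL16 between METTL16 KO and sgNS (circles, with 95% intervals from limma), after median-ratio scaling (squares) and after quantile normalization (triangles). The dashed line is the median of all genes tested, 0.16. MAT2A and METTL16 lie below 0 and MAT1A above it under all 3 scalings, while MAT2B comes close to 0.

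AHCY and its relative AHCYL1 fell, and GNMT was hardly listed. AHCY, which hydrolyses S-adenosylhomocysteine and was the most abundant member in every library, was at 340.7 and 338.65 TPM with sgNS against 311.63 and 313.04 TPM with METTL16 KO. The fall was small, with a log2 fold change of -0.12 (95% interval -0.19 to -0.054, limma adjusted p = 0.0037). Without METTL16 KO replicate 1, AHCY was at -0.12 (limma adjusted p = 0.050), just over the threshold and no longer called. GENCODE lists 6 pseudogenes named for it, so that reads could be split among copies. AHCYL1 encodes a relative of AHCY without its hydrolase activity that binds inositol trisphosphate receptors. It was at 91.18 and 88.63 TPM with sgNS against 71.74 and 71.01 TPM with METTL16 KO. Its groups were well apart, and the log2 fold change was -0.33 (95% interval -0.42 to -0.24, limma adjusted p = 2.3e-05). The ratio of AHCYL1 to AHCY was 0.268 and 0.262 in sgNS and 0.230 and 0.227 in METTL16 KO, so AHCYL1 was lower relative to AHCY too. GNMT, a methyltransferase of liver that spends surplus SAM on glycine, was listed at 0 and 0.09 TPM with sgNS against 0 in both METTL16 KO libraries. It was below the minimum level and not tested, and with the depth unknown these values set no limit on its level.

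MTR and MTRR, which together rebuild methionine from homocysteine with methyl folate, rose. MTR, the methionine synthase, was at 14.59 and 13.3 TPM with sgNS against 18.42 and 17.89 TPM with METTL16 KO. MTRR, the reductase that keeps the cobalamin of methionine synthase active, was at 32.46 and 32.67 TPM with sgNS against 43.57 and 40.94 TPM with METTL16 KO. Both genes were higher in both METTL16 KO libraries, by a similar amount. The log2 fold change was 0.38 for MTR (95% interval 0.22 to 0.53, limma adjusted p = 4.9e-04) and 0.37 for MTRR (95% interval 0.26 to 0.49, limma adjusted p = 6.2e-05). After median-ratio scaling both were at 0.21, with adjusted p-values of 0.015 and 0.0040 in limma. The ratio of MTRR to MTR was 2.23 and 2.46 in sgNS and 2.37 and 2.29 in METTL16 KO, and the groups overlapped. MTRR also overlaps FASTKD3 on the opposite strand, though their canonical exons share no base.

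BHMT, which methylates homocysteine with betaine and is abundant in normal liver, was low throughout. It was at 2.22 and 2.59 TPM with sgNS against 3.46 and 3.39 TPM with METTL16 KO. The groups did not overlap, with a log2 fold change of 0.50 (95% interval 0.18 to 0.81, limma adjusted p = 0.0082). The call was lost after median-ratio scaling (0.34, limma adjusted p = 0.052) and after quantile normalization (0.25, limma adjusted p = 0.14). It was also lost without sgNS replicate 1 (0.39, limma adjusted p = 0.051). Its gene lies within that of DMGDH, on the opposite strand, though the canonical exons of these genes share no base. DMGDH is described with its role among the related enzymes.

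In sgNS the order of levels from high to low was AHCY, MAT2A, AHCYL1, MAT2B, MTRR, MTR, BHMT, MAT1A and GNMT. In METTL16 KO MAT2A and AHCYL1 changed places, as did BHMT and MAT1A. No neighbours in either order overlapped between their libraries. Over the 4 libraries, the genes whose log2 levels, centred on their own mean, lay closest to those of MAT2A were NUBPL, TCEA3, WDR26, CDKN2C and SUB1. Their Euclidean distances were 0.011 to 0.018, against a median of 0.91 for all other genes tested. NUBPL was at 117.38 and 119.23 TPM with sgNS against 71.39 and 71.27 TPM with METTL16 KO. The likeness rests on 2 groups of 2 libraries and therefore mostly restates a fold change of the same size. Among the members AHCYL1 was the closest to MAT2A, at a distance of 0.40, and MAT1A the farthest, at 2.82.

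The neighbouring steps were examined with 9 lists ordered by role, 82 genes in all, of which 80 were in the table and 78 were tested. At an adjusted p under 0.05, 27 were lower (34.6%) and 32 were higher (41.0%), against 25.6% and 50.1% of all genes, at a median log2 change of 0.073 beside 0.16 for all genes. METTL16, the target of the guide, is in the last list and counts among the 27. The balance turned with scaling, to 35 lower and 21 higher after median-ratio scaling (36.5% and 36.4% of all genes) and to 34 and 22 after quantile normalization (35.5% and 36.9%). Counts of the single lists may be read against the same shares. Of the 7 genes that supply methyl groups to homocysteine or break down betaine, 4 fell and 2 rose, and the median was -0.50. BHMT2, the paralog of BHMT that uses S-methylmethionine, was at 136.67 and 133.9 TPM with sgNS against 50.9 and 46.57 TPM with METTL16 KO. Its level was thus far above that of BHMT in every library, and its log2 fold change of -1.47 (limma adjusted p = 9.3e-10) was opposite in sign to that of BHMT. ALDH7A1, which oxidises betaine aldehyde, fell by 0.97. DMGDH, which oxidises the dimethylglycine left by BHMT, fell by 0.50.

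Of the 9 genes for transsulfuration and the breakdown of sulfur compounds, 6 fell (66.7%) and none rose, beside 25.6% and 50.1% of all genes, at a median log2 change of -0.48. The 3 genes that did not pass, CDO1, CSAD and SQRDL, had log2 fold changes of 0.076, 0.20 and 0.030. Their adjusted p-values were 0.36 to 0.70 in limma. All 3 were below 0 after quantile normalization but not called, with limma adjusted p-values from 0.096 to 0.62. After median-ratio scaling CDO1 and SQRDL were below 0, while CSAD was at 0.041 (limma adjusted p = 0.85). CTH, the cystathionine gamma-lyase that releases cysteine, was at 21.85 and 22.34 TPM with sgNS against 8.95 and 8.7 TPM with METTL16 KO. It fell by 1.31 on the log2 scale (limma adjusted p = 2.4e-08). ETHE1, a mitochondrial persulfide dioxygenase, fell by 1.12, and MPST, a sulfurtransferase, fell by 0.62. CBS, which commits homocysteine to this branch, was at 149.22 and 133.23 TPM with sgNS against 117.23 and 113.53 TPM with METTL16 KO, and it fell by 0.29. The same 6 to 0 split was counted after median-ratio scaling and after quantile normalization.

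Of the 6 genes that bring cobalamin to methionine synthase, 3 rose and 1 fell. ABCD4, a lysosomal transporter, rose by 0.53 and MMACHC, which processes cobalamin in the cytosol, rose by 0.48, while CD320, the receptor for its uptake, fell by 0.55. After median-ratio scaling the counts were 2 higher and 3 lower, so the balance of this list depended on scaling. Of the 8 genes of methionine salvage and of the polyamine steps that feed it, 4 fell and 3 rose. APIP and ENOPH1, consecutive enzymes of salvage, fell by 0.58 and 0.52. AMD1, which decarboxylates SAM for polyamines, was at 138.66 and 148.02 TPM with sgNS against 211.76 and 214.04 TPM with METTL16 KO, a log2 fold change of 0.57. MTAP, the entry enzyme of salvage, had -0.030 (limma adjusted p = 0.64), and -0.19 after median-ratio scaling (limma adjusted p = 0.0087).

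Among the enzymes that spend SAM on small molecules, 3 of the 9 tested fell and 4 rose, whereas 4 were lower and 2 higher after median-ratio scaling and after quantile normalization. GAMT, which makes creatine and is among the large users of SAM in liver, was at 443.95 and 425.12 TPM with sgNS against 168.8 and 168.35 TPM with METTL16 KO. It was above every member in level in sgNS and fell by 1.37 on the log2 scale (limma adjusted p = 1.2e-10). HNMT, which methylates histamine, fell by 1.06. NNMT, which methylates nicotinamide, was at 1.14 and 1.63 TPM with sgNS against 3 and 2.26 TPM with METTL16 KO, a log2 fold change of 0.89 (limma adjusted p = 0.0030). Without METTL16 KO replicate 1 NNMT had 0.69 (limma adjusted p = 0.053). PEMT, which makes phosphatidylcholine, had 0.019 (limma adjusted p = 0.78), which turned to -0.15 after median-ratio scaling (limma adjusted p = 0.042). INMT was listed at 0 in every library.

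Of the 8 protein arginine methyltransferases tested, 2 fell and 1 rose, whereas 4 were lower and none higher after median-ratio scaling and after quantile normalization. PRMT1, the most abundant of them, went from 332.17 and 340.36 TPM to 259.34 and 250.56 TPM, a log2 fold change of -0.40 (limma adjusted p = 1.1e-06). PRMT6 had -0.31 and PRMT9 0.18, with adjusted p-values of 0.025 and 0.035. Leaving out sgNS replicate 1 or either METTL16 KO library ended the call of PRMT6, with adjusted p-values from 0.059 to 0.15. The call of PRMT9 was lost without either sgNS library or METTL16 KO replicate 1, with adjusted p-values from 0.074 to 0.27, and its sign turned with quantile normalization (-0.016). Of the 3 DNA methyltransferases, the de novo enzymes DNMT3A and DNMT3B rose by 0.60 and 0.73, with adjusted p-values of 9.9e-07 and 1.1e-06 from limma. DNMT1, the maintenance enzyme, had 0.10 (limma adjusted p = 0.062), was called without sgNS replicate 1 (0.13, limma adjusted p = 0.025) and turned to -0.066 after median-ratio scaling. Of 20 histone lysine methyltransferases tested, 13 rose and 5 fell, and 7 were higher and 6 lower after median-ratio scaling. KMT2A and KMT2B, which methylate lysine 4 of histone H3, rose by 0.62 and 0.60, whereas EZH2, the Polycomb enzyme, fell by 0.54.

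The last list held genes that move, sense or process SAM, adenosine or MAT2A RNA. Of its 8 genes 4 rose and 2 fell, METTL16 among the latter. BMT2, now named SAMTOR, a SAM sensor upstream of mTORC1, rose by 0.61. AHCYL2, the paralog of AHCYL1, went from 8.31 and 8.19 TPM to 12.54 and 12.1 TPM, a log2 fold change of 0.57, opposite in sign to AHCYL1. SLC25A26, which carries SAM into mitochondria, rose by 0.53. ADK, which removes the adenosine released by AHCY, had a log2 fold change of -0.49 (limma adjusted p = 4.1e-04). YTHDC1, a nuclear reader of methylated RNA linked to MAT2A, had 0.31 (limma adjusted p = 3.2e-04). NUDT21, a cleavage factor subunit linked to splicing of MAT2A, was at 83.72 and 87.71 TPM with sgNS against 83.75 and 82.75 TPM with METTL16 KO, and did not pass, with -0.042 (limma adjusted p = 0.39), but was called lower after median-ratio scaling (-0.21, limma adjusted p = 0.0014).

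**Figure D4:**
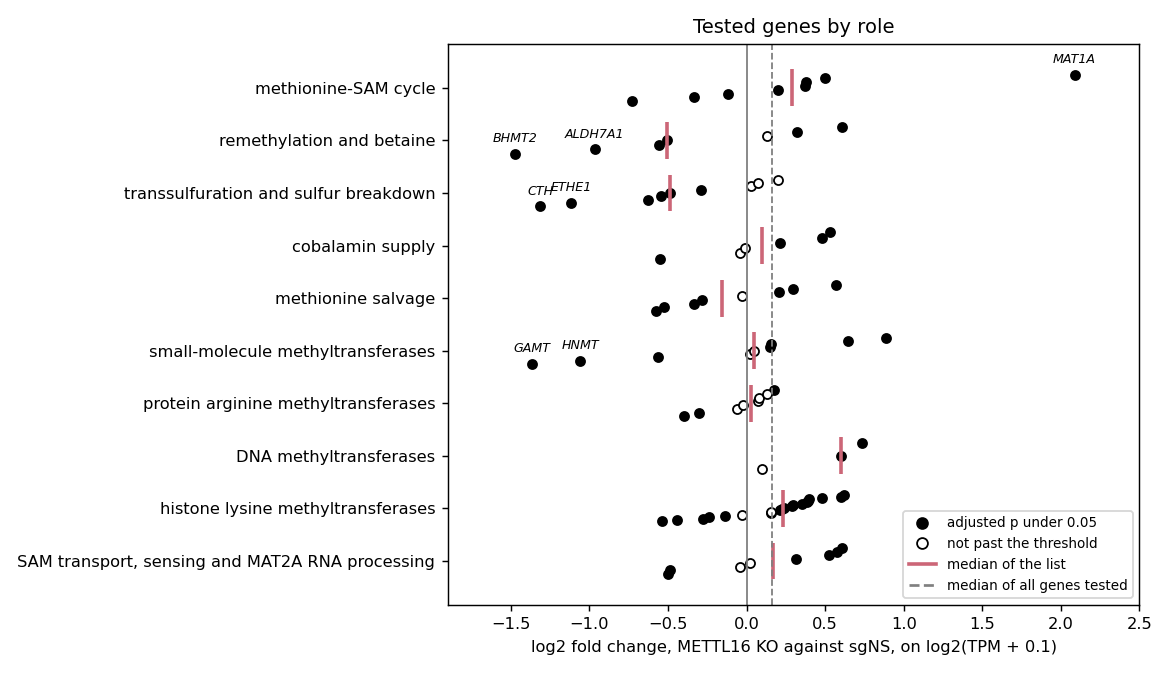
Log2 fold change between METTL16 KO and sgNS of the 8 tested members (top line) and of the tested genes of 9 lists by role, filled where the adjusted p from limma was under 0.05, with the median of each list (red) and of all genes tested (dashed, 0.16). The remethylation and transsulfuration lists have their medians at -0.50 and -0.48, and genes beyond 0.9 in size are named.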

How the data were processed

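RNA-seq of 4 Huh7 libraries was read from 1 table that the authors deposited, with a TPM value per gene symbol and library, rounded to 2 decimals. Per the methods and the labels, reads were trimmed with Cutadapt, mapped to GRCh38 with STAR and quantified with RSEM, while versions, annotation and strand setting are not given in the sources used here. The methods call the values RPKM, but each library sums to 1000000. The labels name both Ribozero RNA and a stranded mRNA kit. Columns were matched to samples by name.

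Genes with a mean of at least 1 TPM were tested on log2(TPM + 0.1) with limma 3.58.1 in R 4.3.3 (lmFit, eBayes with trend, no block), with Benjamini-Hochberg adjustment over 11971 genes. The script was tested on simulated data in which 11771 of 11971 genes were unchanged. Those data held no shift of the median gene, so they do not cover that feature of these libraries. The sources used here name no test for these RNA-seq values. Members and lists were chosen with earlier results of these data known. Genes named were all members, METTL16, up to 3 called genes with the largest change per list and the 5 nearest to MAT2A. CBS, DMGDH, MTAP, CDO1, CSAD, SQRDL, PEMT, INMT, DNMT1, ADK, YTHDC1, NUDT21, AFP, ALB, LYZ, SOX9 and GGCX were named for their role, low level or overlap after their values were seen. PNMT and EHMT2 are not analysed here. A gene that the naming rule picked is counted in its list but not reported here. Alternatives were other pseudocounts, filters and scalings, a replicate block, limma without trend and each library left out, and a fold threshold was added after the data were seen. Positions, transcripts and 3′ UTR sequences are from GENCODE release 44 on GRCh38, using the canonical transcript of each gene. Figures were drawn with matplotlib 3.10.9 in Python 3.11.15.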

Additional observations from a re-analysis of the deposited data

How the results depend on the processing

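MAT2A was lower and METTL16 was lower with an adjusted p under 0.05 in limma in all 12 alternatives set for each, with log2 fold changes from -0.89 to -0.72 and from -0.68 to -0.45. Leaving out 1 library gave -0.73 to -0.72 for MAT2A and -0.54 to -0.45 for METTL16. In that fit the lone library of a group is assumed to vary like the other group. Of the 8 tested members, 3 were lower and 5 higher. The number higher was 3 with a minimum mean of 5 TPM, which leaves MAT1A and BHMT untested, 3 under median-ratio scaling and 3 under quantile normalization. With an added threshold of 1 on the log2 fold change, chosen after seeing the data, 0 were lower and 1 was higher. Of the related genes, 27 were lower and 32 higher as reported, against 35 and 21 with median-ratio scaling. Some small changes turned in sign. With median-ratio scaling CDO1 was at -0.087, SQRDL at -0.13, PEMT at -0.15 and DNMT1 at -0.066. With quantile normalization CDO1 was at -0.12, CSAD at -0.11, SQRDL at -0.15, PEMT at -0.15, DNMT1 at -0.037 and PRMT9 at -0.016. Leaving out 1 library gave -0.052 to 0.11 for SQRDL and -0.032 to 0.070 for PEMT. Without trend AHCY had an adjusted p of 0.057 in limma. Some alternatives tested fewer genes or took out the shift of the median gene by 0.16, and the cause of these changes was not tested. With the replicate number as a block, 3 members were lower and 5 higher and MAT2A stayed at -0.73, so the block changed no call of a gene named here, and 33 related genes were higher. Same-numbered libraries of the groups did not deviate together (r = -0.045 over genes). With 2 libraries per group, this does not tell what the number marks or whether such libraries share a step. With the depth unknown, no counting error can be given for low genes such as MAT1A, BHMT and GNMT.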
